A study of Mus musculus with 2 samples.

Results

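The miR-30 family comprises 6 microRNA (miRNA) genes in the mouse, Mir30a, Mir30b, Mir30c-1, Mir30c-2, Mir30d and Mir30e, out of 1973 miRNA genes counted. They were selected by gene symbol, each matched to its row through its Ensembl identifier. The tissue was labelled neural tube, a name for the embryonic source of brain and spinal cord, and was taken at postnatal day 0 from B6NCrl mice. There was 1 group of 2 libraries, each made from the neural tube of a single pup, pup 2 and pup 1 of 1 dam, from RNA shorter than 30 bases. No treatment or genotype was compared and sex was not collected, which leaves the level of each gene and the difference between littermates to report.

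A miRNA guides Argonaute proteins to messenger RNAs, mainly through its seed near the 5′ end, and lowers their translation and stability. All miR-30 miRNAs carry the same seed on the 5p arm, the arm nearest the 5′ end of the hairpin precursor, and are therefore predicted to act on overlapping sets of targets. Known targets in other settings include Becn1 (autophagy), Snai1 (epithelial to mesenchymal transition) and Bdnf, a growth factor of neurons. The genes lie in 3 genomic pairs, Mir30e with Mir30c-1, Mir30a with Mir30c-2 and Mir30d with Mir30b.

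The mature 5p arms show what the genes have in common and where they part (RefSeq, build GRCm38.p6; seed, bases 2 to 8, in capitals). They were available for Mir30a, Mir30e and both miR-30c genes. A seed search of the RefSeq mature sequences found Mir384 as the further gene with this seed. That set held no mature sequence of Mir30b or Mir30d, which are not shown, so the search could miss other genes too.
miR-30e-5p: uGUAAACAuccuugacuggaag
miR-30a-5p: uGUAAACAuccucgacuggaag
miR-30c-5p: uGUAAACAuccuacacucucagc
miR-384-5p: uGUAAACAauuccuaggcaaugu
Counted from the 5′ end, miR-30e-5p differs from miR-30a-5p by the single substitution C13U. The miR-30c-5p arm is identical to miR-30a-5p over the first 12 bases and then carries C13A, G14C, G18C, G19U and A20C within the length of miR-30a-5p. The miR-384-5p arm is identical over 8 bases only.

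Mir30c-1 and Mir30c-2 make the same 5p arm, and their hairpins are shown because this bears on how their reads could be counted. The longest stretch shared by both precursors is in capitals.
Mir30c-1 hairpin: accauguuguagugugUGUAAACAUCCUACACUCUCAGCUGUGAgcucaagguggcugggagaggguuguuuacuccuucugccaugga
Mir30c-2 hairpin: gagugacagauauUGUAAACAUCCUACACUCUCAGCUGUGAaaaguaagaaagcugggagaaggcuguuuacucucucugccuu
The shared stretch is 28 bases long. It starts at the first base of the 23-base 5p arm and runs 5 bases past its end, so a 5p read within it fits both genes. The 3p arms do differ, at 3 positions (in capitals).
miR-30c-1-3p: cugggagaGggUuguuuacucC
miR-30c-2-3p: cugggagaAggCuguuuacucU
No other member of the family shares 22 bases with any miRNA gene. The next longest shared stretches were 18 bases, between Mir30e and Mir30a and between Mir30b and each miR-30c gene, followed by 16 bases between Mir30e and Mir30d and 14 between Mir30a and Mir30d. Across these groups, Mir30e, Mir30a or Mir30d against Mir30b or a miR-30c gene, the longest shared stretch was 11 or 12 bases. With genes outside the family it was at most 11.

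**Figure D1:**
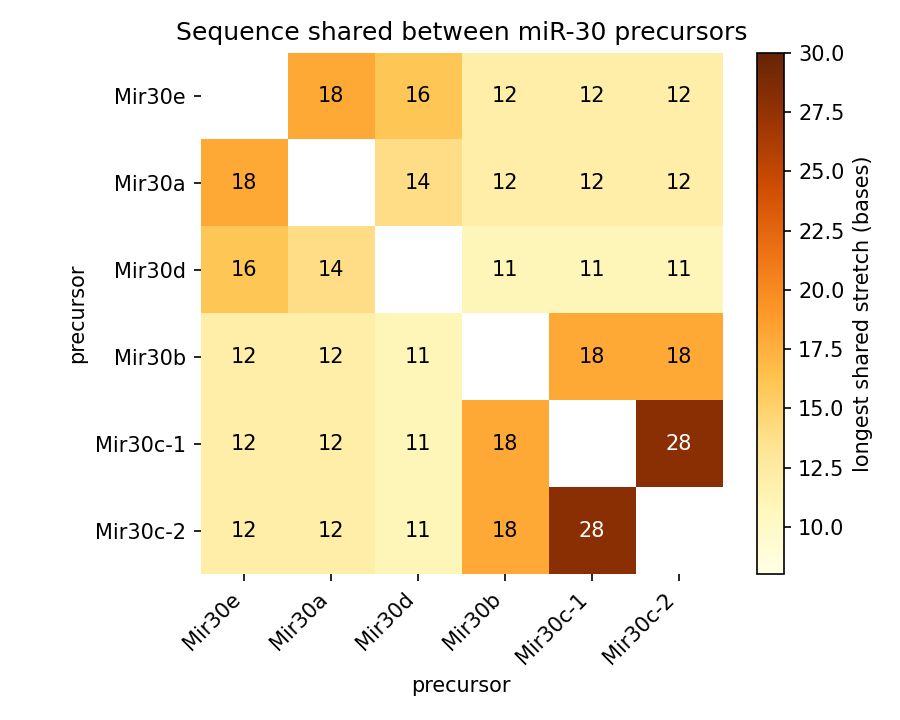
Longest stretch of identical bases shared by each pair of miR-30 precursors, in bases (colour and printed number; the diagonal is left empty). Mir30c-1 and Mir30c-2 share 28 bases, the other pairs 11 to 18, and the precursors fall into a group of Mir30e, Mir30a and Mir30d and a group of Mir30b and the miR-30c genes.

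Library totals were 3660693 counts in pup 2 and 3216453 in pup 1, counted to miRNA genes on their own strand. Reads that fitted several places, 35.4% of all reads in pup 2 and 35.7% in pup 1, were counted to no gene. Of 16 measured neural marker genes, 13 were detected (at least 10 counts in both pups). Mir9-1 was not measured. The 16 genes summed to 29678 counts per 1000000 own-strand counts (CPM) in pup 2, against 25222 CPM for pup 1. Most of this sum was Mir137, with 62690 counts in pup 2 and 48332 in pup 1. Endothelial Mir126a stood at 26007 CPM in pup 2, against 27838 CPM in pup 1. Neural Mir9-2, Mir9-3 and the Mir124a, Mir128, Mir138, Mir218 and Mir219a genes share 22 bases with another miRNA gene, and Mir126a does not. The neural sum therefore lacks reads that fit several of these genes and cannot be set against the level of Mir126a. The 6 mesenchyme markers, of which 5 were detected, summed to 11371 CPM in pup 2, against 10663 CPM in pup 1. Mir199a-1 and Mir199a-2 of this list share 22 bases with another miRNA gene, so this sum too lacks reads. The striated muscle list (3 of 8 measured genes detected), the blood list (4 of 4), the epithelial list (5 of 7) and liver Mir122 each summed to less than the abundant level of 1000 CPM. Mir142 and Mir486a of the blood list were not measured, so the blood sum leaves them out. Of the muscle genes, Mir1a-1, Mir133a-1 and Mir133a-2 had 0 uniquely placed counts in both pups. Mir133a-1 and Mir133a-2 share 22 bases with another miRNA gene, and Mir1a-2 was not measured, so these zeros say little of the muscle miRNAs.

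Among uniquely placed reads, 3 genes held nearly all counts of the family. Reads that fitted several places are in none of the values below, so the counts of Mir30c-1 and Mir30c-2, which share the whole 5p arm, are not levels of miR-30c. Ranks among all miRNA genes likewise rest on uniquely placed counts. Genes outside the family that share sequence also lack such reads, so the ranks are not ranks of the miRNAs. The 6 genes together held 3.60% of the counts in pup 2 (exact 95% binomial interval 3.58 to 3.62%) and 3.10% in pup 1 (3.09 to 3.12%), a mean of 3.35% ± 0.35 (SD, n = 2). These intervals cover counting error only. Mir30e, Mir30a and Mir30d held 99.3% of the family's counts in pup 2 and 98.8% in pup 1. Mir30b and both miR-30c genes held the remaining 0.717% in pup 2 and 1.18% in pup 1. All 6 genes were detected, and none had a count on the opposite strand, where a count of 0 allows up to 3. A read covers the mature miRNA whole, so the levels are not scaled by gene length.

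Mir30e led the family and had rank 9 among all miRNA genes by uniquely placed counts. It had 69841 counts (19079 CPM) in pup 2 and 51111 counts (15890.5 CPM) in pup 1, a mean of 17485 CPM ± 2254 (SD, n = 2). It made 53.0% of the family's counts in pup 2 and 51.2% in pup 1. Mir30e lies on chromosome 4 (120772606 to 120772697, minus strand, mm10) in an intron of Nfyc, which encodes a subunit of the transcription factor NF-Y. Its 3p arm differs from that of Mir30a by G18A alone, counted from the 5′ end of the Mir30a arm, and the counts do not tell arms apart. Mir30f is annotated over the same bases on the opposite strand, where 0 uniquely placed counts fell in either pup. It was not analysed further.

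Mir30a, at rank 21, had 33016 counts (9019 CPM) in pup 2 and 25336 counts (7877 CPM) in pup 1. Its mean was 8448 CPM ± 808 (SD, n = 2), or 25.1% of the family in pup 2 and 25.4% in pup 1. It is at 23272269 to 23272339 of chromosome 1, on the plus strand, and no other annotated gene covers it. Mir30d, at rank 24, had 27929 counts (7629 CPM) in pup 2 and 22225 counts (6909.8 CPM) in pup 1, a mean of 7269.6 CPM ± 509. It lies on chromosome 15 (68341208 to 68341289, minus strand), where noncoding Gm20732 has an exon. An exon of Gm37296 on the same strand overlaps Mir30d in part. In each of the 3 genes pup 2 was the higher library.

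The other 3 genes had far fewer uniquely placed counts. Mir30b, at rank 166, had 651 counts (178 CPM) in pup 2 and 894 counts (278 CPM) in pup 1, with a mean of 228 CPM ± 70.8 (SD, n = 2). Unlike its neighbour Mir30d, it was lower in pup 2. It lies on chromosome 15 (68337415 to 68337510, minus strand), partly over an exon of the noncoding transcript Gm26621. Mir30c-1, at rank 247, had 148 counts (40.4 CPM) in pup 2 and 164 counts (51.0 CPM) in pup 1, a mean of 45.7 CPM ± 7.47. It lies on chromosome 4 (120769534 to 120769622, minus strand), in an intron of Nfyc like Mir30e. Mir30c-2, at rank 251, had 146 counts (39.9 CPM) in pup 2 and 118 counts (36.7 CPM) in pup 1, a mean of 38.3 CPM ± 2.26. Its place is 23291701 to 23291784 of chromosome 1, plus strand, within the single exon of noncoding Gm27028. For scale, the median mean level of the 352 detected miRNA genes was 200 CPM, below Mir30b and above the counts of both miR-30c genes.

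**Figure D2:**
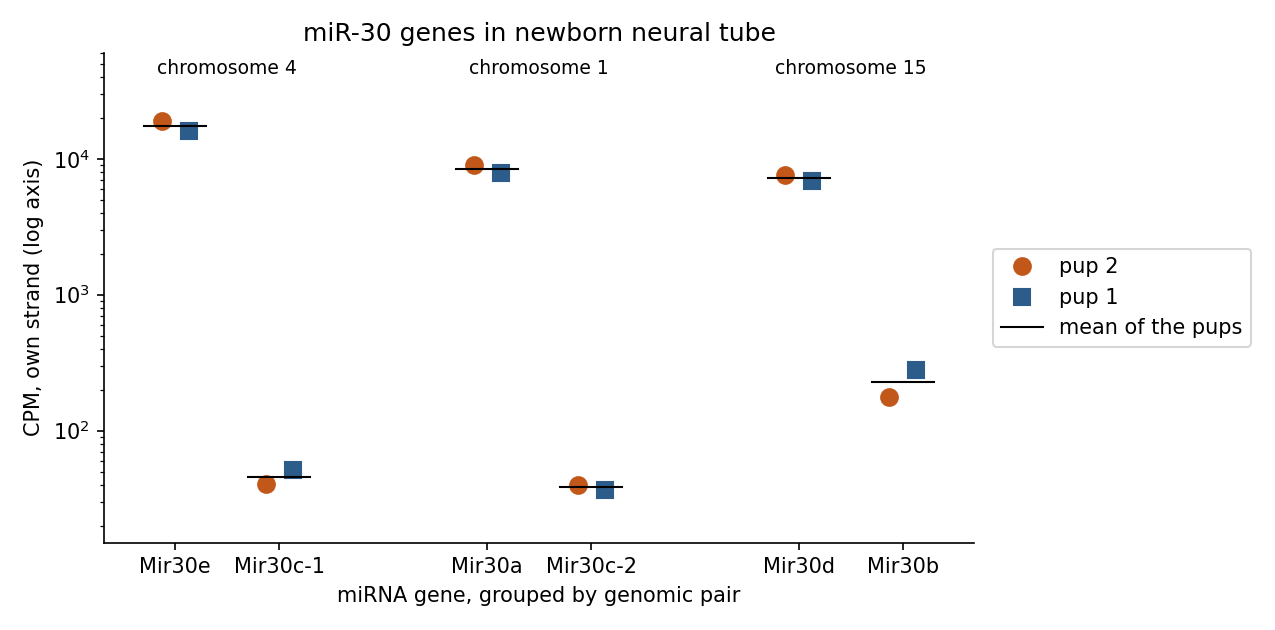
Level of each miR-30 gene in CPM on a log axis, with genes grouped by genomic pair and chromosome (circle, pup 2; square, pup 1; line, mean of both). Mir30e, Mir30a and Mir30d lie between 6909.8 and 19079 CPM, and each pair's other gene lies between 36.7 and 278 CPM.

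By uniquely placed counts the order was Mir30e, Mir30a, Mir30d, Mir30b, Mir30c-1 and Mir30c-2, and the place of the miR-30c genes in it is not that of their miRNA. Successive genes were called different where the gap between their means on the log2(CPM + 1) scale lay outside a 95% normal interval. Its width came from the SD between the pups, pooled over detected genes of like abundance (4 classes). By this rule 3 of the 5 successive steps differed. Mir30e lay 2.07-fold above Mir30a (interval 1.65 to 2.58), Mir30d lay 32.5-fold above Mir30b (25.1 to 42.0), and the uniquely placed counts of Mir30b lay 4.81-fold above those of Mir30c-1 (3.56 to 6.51). Mir30a against Mir30d was 1.16-fold with an interval of 0.928 to 1.45, and Mir30c-1 against Mir30c-2 was 1.18-fold with an interval of 0.861 to 1.62. Neither of these 2 steps exceeded the spread. The rule covers differences between these pups and no bias in how well each sequence enters a library.

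Neighbours in rank among all miRNA genes are again by uniquely placed counts. Mir30e stood next below Mirlet7i (a let-7 gene, 1.47-fold higher, beyond the spread) and next above Mir100 (1.04-fold, within it). Mir30a stood between Mir322 and Mir22, and Mir30d between Mir382 and Mir143. Mir30b stood between Mir25 and Mir760, Mir30c-1 between Mir544 and Mir3102, and Mir30c-2 between Mir5099 and Mir702. None of these 5 genes differed beyond the spread from either neighbour in rank.

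In every genomic pair the uniquely placed counts of the partners lay far apart, and in both pairs with a miR-30c gene this gap is not one between levels of the miRNAs. On chromosome 4, Mir30e exceeded Mir30c-1, 2983 bases away, by 472-fold in pup 2 and 312-fold in pup 1 in CPM. On chromosome 1, Mir30a exceeded Mir30c-2, 19361 bases away, by 226-fold in pup 2 and 215-fold in pup 1. On chromosome 15, Mir30d exceeded Mir30b, 3697 bases away, by 42.9-fold in pup 2 and 24.9-fold in pup 1. On the log2(CPM + 1) scale the mean differences were 8.55, 7.75 and 5.02, each beyond the pooled spread (limits 0.40, 0.40 and 0.37).

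Such gaps were common between neighbouring miRNA genes, but those of the pairs with a miR-30c gene were among the wide ones. Of 129 pairs of consecutive, non-overlapping miRNA genes on 1 strand, with starts within 50 kb and at least 10 counts summed per gene, 89.1% differed in level beyond the spread. The median fold between partners was 5.77, with quartiles of 2.45 and 32.1. Mir30e over Mir30c-1 had the sixth highest fold of the 129 and Mir30a over Mir30c-2 the tenth. Mir30d over Mir30b ranked 32. Of these pairs 44 lie on chromosome 12, and a gene can belong to a pair on either side, so the pairs are not independent.

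The pairs were also split by whether a partner shares sequence with another gene. In 20 pairs only the lower partner shared a 22-base stretch with another miRNA gene. Their median fold was 33.4, and they include the pairs of Mir30e with Mir30c-1 and Mir30a with Mir30c-2. In 88 pairs neither partner did, with a median fold of 4.74, and Mir30d with Mir30b is 1 of them. In that last set 14 pairs had a wider fold than Mir30d over Mir30b. In 18 pairs both partners shared such a stretch (median fold 9.01), and in 3 pairs only the higher partner did (median 1.54). Of the 5 pairs with a fold above that of Mir30e over Mir30c-1, 3 had no sharing partner, the widest at 1789-fold, and 2 had a sharing lower partner. Over all genes with a precursor sequence, 64 of 861 that share 22 bases were detected (7.43%), against 288 of 1033 that do not (27.9%). Many of the sharing genes have Gm symbols or are Mir466, Mir467 or Mir669 copies. The sets were not matched for kind of gene. Lower and higher partner were set by the same counts as the fold, so the medians of these sets are no test of sharing. This split of pairs and genes was made after the values were seen. The part of shared sequence in the low miR-30c counts was not tested. Whether Mir30b reads also fit places outside the annotated miRNA genes was not analysed here.

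**Figure D3:**
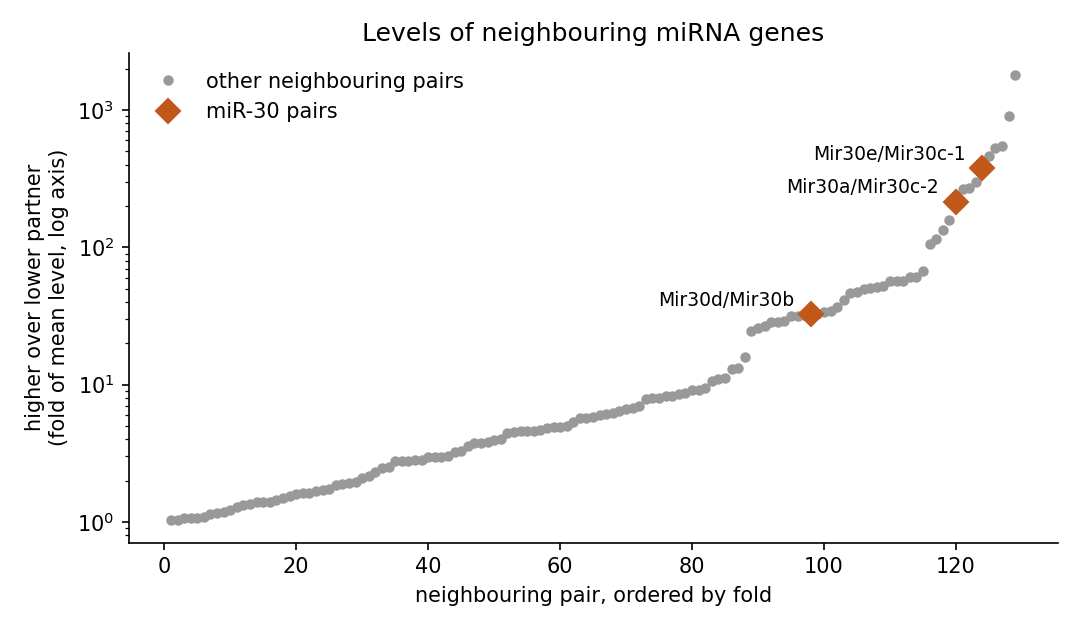
Fold of the mean level, higher over lower partner, for 129 pairs of neighbouring miRNA genes on a log axis, ordered from the smallest to the widest (grey dots; orange diamonds, miR-30 pairs). Mir30e over Mir30c-1 and Mir30a over Mir30c-2 lie near the upper end, at 375-fold and 215-fold on the log2(CPM + 1) scale, and Mir30d over Mir30b lies at 32.5-fold, close to the upper quartile.

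The pups differed in the miR-30 genes in both directions. Mir30e, Mir30a and Mir30d were higher in pup 2 by 1.20-fold, 1.14-fold and 1.10-fold, and Mir30b was lower at 0.640-fold. These 4 of 6 genes passed an exact two-sided binomial test on each gene's counts given the library totals, adjusted over all 413 genes tested by Benjamini-Hochberg. The same test called 40.9% of all tested genes, 25.7% higher and 15.3% lower in pup 2, so a call by itself sets a gene little apart here. The split of these calls by direction changed with the scaling of the libraries. The test compares 2 libraries and covers counting error only. The median log2 ratio, pup 2 over pup 1, was 0.13 over the 6 genes and 0.04 over all genes tested.

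The log2 ratio of Mir30e was 0.26 (95% counting interval 0.25 to 0.28, exact binomial adjusted p = 1.5e-216). Those of Mir30a and Mir30d were 0.20 (0.17 to 0.22) and 0.14 (0.12 to 0.17). Among the 85 other genes of the highest abundance class, 15 lay further from 0 than Mir30e, 25 further than Mir30a and 39 further than Mir30d. The summed neural markers, mostly Mir137, were also higher in pup 2 (29678 CPM, against 25222 CPM in pup 1). So were the mesenchyme, striated muscle, blood and epithelial sums, while endothelial Mir126a and liver Mir122 were lower. The part of these marker differences in the ratios of Mir30e, Mir30a and Mir30d was not tested.

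Mir30b had a log2 ratio of -0.64 (-0.79 to -0.50, exact binomial adjusted p = 1.9e-17), and 5 of the 87 other genes of its abundance class lay further from 0. The ratios of Mir30c-1 (-0.33, -0.65 to -0.01, adjusted p = 0.090) and Mir30c-2 (0.12, -0.23 to 0.47, adjusted p = 0.69) did not pass the exact binomial test. Over these 2 libraries, of the genes that reached 100 counts in both pups, those with a ratio nearest to that of Mir30b were Mir1249 (-0.59), Mir196b (-0.69) and Mir122 (-0.70). With 2 libraries this likeness rests on a single ratio per gene.

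**Figure D4:**
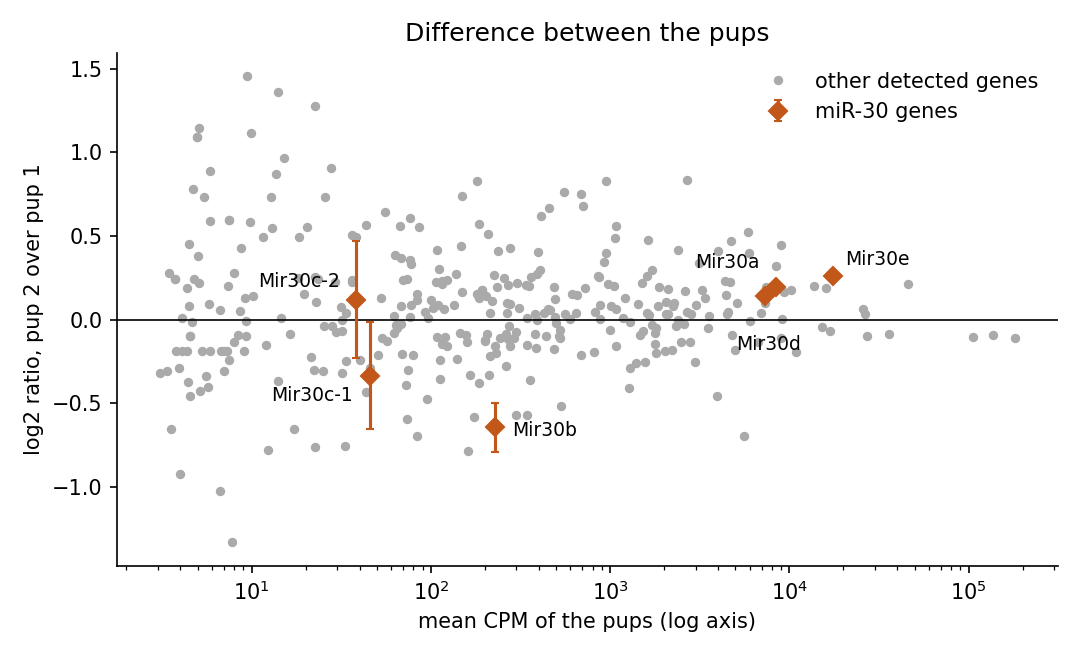
Log2 ratio of pup 2 over pup 1 against mean CPM (log axis) for detected genes (grey dots) and the miR-30 genes (orange diamonds; bars, 95% counting intervals). Mir30e, Mir30a and Mir30d lie above 0, between 0.14 and 0.26, Mir30b lies at -0.64, and the bar of Mir30c-2 crosses 0.

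Partners of a pair did not always keep the same ratio between the pups. The ratio of each partner was compared within the pair by a two-sided Fisher exact test on the counts, in which library scaling cancels, adjusted over the 129 neighbouring pairs. This test called 37.2% of all pairs and 2 of the 3 miR-30 pairs. Mir30d and Mir30b, at 0.14 and -0.64, differed by 0.79 on the log2 scale (counting interval 0.64 to 0.93, Fisher exact adjusted p = 1.8e-24), and 14 of the 129 pairs differed by more. Mir30e and Mir30c-1, at 0.26 and -0.33, differed by 0.60 (0.28 to 0.92, Fisher exact adjusted p = 0.0011), and 30 pairs differed by more. Mir30a and Mir30c-2, at 0.20 and 0.12, differed by 0.08 with an interval of -0.27 to 0.43 (Fisher exact adjusted p = 0.81), and 112 pairs differed by more. This test too covers counting error only, and the ratios of the miR-30c genes leave out reads that fit both. The pairs were not matched for abundance. Those that differed by more include pairs of few counts, with wide intervals, that the test did not call.

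Outside the 6 genes, the search of RefSeq mature sequences found the miR-30 seed in miR-384-5p. Mir384, on the X chromosome, had 2076 counts (567 CPM) in pup 2 and 1784 counts (555 CPM) in pup 1, a mean of 561 CPM ± 8.81 (SD, n = 2). Its level was 2.52 times that of Mir30b and 0.0774 times that of Mir30d, both differences beyond the pooled spread. Its log2 ratio between the pups was 0.03 and did not pass the exact binomial test (adjusted p = 0.66).

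The families most like miR-30 in gene arrangement are miR-181, with 6 genes in 3 pairs, and miR-29, with 4 genes in 2 pairs. The miR-30 genes together held 3.35% ± 0.35 of the counts, the miR-181 genes 1.69% ± 0.016 and the miR-29 genes 0.0862% ± 0.0078 (SD, n = 2). The miR-30 sum lay 1.98-fold above the miR-181 sum (2.15-fold in pup 2, 1.83-fold in pup 1) and 38.9-fold above the miR-29 sum (39.3-fold in pup 2, 38.5-fold in pup 1). Both differences, 0.98 and 5.28 on the log2 scale, exceeded the limit of 0.32 from the highest abundance class. Only uniquely placed reads enter these sums, and genes free of a shared 22-base stretch numbered 4 of 6 for miR-30, 2 of 6 for miR-181 and 1 of 4 for miR-29. Over those genes alone the differences were 1.26 on the log2 scale against miR-181 and 6.08 against miR-29. The miR-30c genes thus left out held 0.223% of the miR-30 counts in pup 2 and 0.282% in pup 1. Leaving genes out could therefore hardly narrow the gaps, and it restores no read that fitted several places. It is no check on reads lost to shared sequence.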

How the data were processed

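Small RNA libraries of 2 littermate pups were analysed. Per the authors' text deposited beside each table, reads were counted per miRNA gene of GENCODE M4 on mm10, and the values are raw counts on either strand, the own strand and the opposite strand; neither aligner nor counting program is given in the sources used here. The 4 opening rows of each table, which hold read classes such as unmapped and multimapping, stayed out of totals. Own-strand counts were scaled to CPM. Symbols and positions came from GENCODE M21, same build, matched for 1894 of 1973 identifiers; stretches shared between precursors used its transcripts, mature sequences RefSeq (4 of 6 members matched). With 1 library per pup no residual degrees of freedom remained for edgeR's quasi-likelihood test, so exact binomial and Fisher tests were used, with 0.5 added to counts in ratios. The binomial and Fisher tests were checked on simulated counts with planted differences and counting error only, which leaves variation between pups unchecked. The labels name separate pups. Genes named are the members, seed relatives, rank neighbours and the 3 genes of most similar ratio; members and lists were chosen with earlier results of these data known. Scaling factors came from edgeR 4.0.16 and DESeq2 1.42.0 (R 4.3.3); other software was Python 3.11.15, scipy 1.17.1, pandas 2.3.3, numpy 2.4.6 and matplotlib 3.10.9.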

Additional observations from a re-analysis of the deposited data

How the results depend on the processing

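The calls on the 3 genomic pairs, the order of levels, both family comparisons and the 4 miR-30 genes that differed between the pups kept their direction and their side of the threshold under TMM and DESeq2 scaling, either-strand counts and the other settings tried, except as follows. Without the most abundant gene in the total the family share was 4.09%, and over all reads it was 1.70%, both by construction of the total. From a single pup it was 3.10 to 3.60%. Requiring a 1.5-fold difference between the pups left 32 of 169 gene calls and 1 of 4 among the miR-30 genes, Mir30b. Without chromosome 12, 29 neighbouring pairs differed in ratio in place of 48, of 85 pairs in place of 129, and the same 2 miR-30 pairs were called. A shared stretch of 18 bases took in 5 of the 6 genes, where 22 or 20 bases took in 2. Over the genes sharing no 22-base stretch the difference from miR-29 was 6.08 on the log2 scale in place of 5.28, with fewer genes summed. For both family comparisons this setting could hardly narrow the gap, so the kept direction is no check on reads lost to shared sequence. Single pups were not tried as a setting for the rank neighbours, and Mir30e over Mir100 was 1.16-fold in pup 2 and 0.925-fold in pup 1. The fold of Mir30d over Mir30b was 42.9 in pup 2 alone and 24.9 in pup 1 alone, and that of Mir30e over Mir30c-1 was 472 and 312. The test between the pups cannot leave out a pup. No paired analysis was possible because the data hold 1 group. The miR-30c genes rest on 118 to 164 uniquely placed counts per pup.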
